A study of Mus musculus with 6 samples.

Results

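S100a8 and S100a9, the genes of the 2 subunits of calprotectin, were the most abundant genes in the expression table of osteal macrophages (Omacs) sorted from mouse bone. They were picked by name, by taking the listed transcripts of each gene and adding up their values in each library. They make up 2 of the 11815 genes and 3 of the 23115 transcripts in the table. They were chosen with their difference between the groups already known, so that difference is described here and not tested.

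Bulk RNA-Seq was carried out on Omacs of female BALB/c mice that were 10 weeks old at surgery. The OVX group had both ovaries removed and the sham group had a sham operation, and the cells were taken 4 weeks later, with 3 libraries in each group. Marrow was washed out of the femurs, and pieces of femurs and vertebrae were digested with trypsin and then overnight with collagenase. The cells were then sorted by antibodies to CD11b, CD68 and the protein of Adgre1. No transgene or further treatment of the mice was involved. The effect of the digestion on gene levels was not tested. The study's methods give the number of mice used for cell isolation in each condition, but not how many went into each library. No label says that the libraries come from separate animals. Any p-value below therefore measures only the spread between these libraries, which may be technical.

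S100A8 and S100A9 are small calcium-binding proteins that pair up to form calprotectin. The pair is stored in large amounts in the cytoplasm of neutrophils and is also made by monocytes. Outside the cell it binds zinc and manganese and so withholds these metals from microbes, and it acts as an alarm signal through TLR4 and RAGE. In mature tissue macrophages both genes are usually low.

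Values are TPM, a unit in which all transcripts of a library share 1 fixed total, which correct for transcript length and can be compared between genes. Scaled TPM are TPM divided by 1 factor per library, so that the middle of the genes lies at the same height in all libraries. Differences are OVX minus sham in mean log2(scaled TPM + 1), with the standard error (SE), and SD is given over the 3 libraries of a group.

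One library stood apart before any comparison. OVX replicate 3 had 66.3% of the full TPM scale in the listed transcripts, whereas the other 5 libraries had between 80.5% and 83.0%, and it needed a scaling factor of 0.841, against 0.994 to 1.14 in the others. Its lowest correlation with another OVX library was 0.944, and within the sham group no pair went below 0.980. The levels of the pair are therefore given with and without OVX replicate 3, and the differences of several other genes are given both ways. The depth of a library cannot be read from TPM. Of the sort markers, each read through only some of its annotated transcripts, Cd68, the gene of a lysosomal membrane protein, lay at 41.2, 43.1 and 36.3 scaled TPM in OVX-Omacs, against 32.4, 37.9 and 33.5 in sham Omacs, from 1 of 3 transcripts. Adgre1, the classical marker of mouse macrophages, averaged 0.675 scaled TPM in OVX-Omacs and 0.878 in sham Omacs, from 1 of 5 transcripts. Csf1r, the receptor for the macrophage growth factor, stood at 0 in each of the 6 libraries, from 1 of 6 transcripts. Only 1749 of the 11815 genes had every annotated transcript in the table, so a low value may leave out part of a gene.

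Both genes lie in the S100 gene cluster on chromosome 3 (GRCm38, GENCODE M21), facing each other with their 3′ ends. S100a8 (ENSMUSG00000056054) spans chr3:90668978-90670035 on the plus strand and S100a9 (ENSMUSG00000056071) spans chr3:90692632-90695721 on the minus strand. A stretch of 22596 bases with 0 annotated genes separates them. S100a8 was listed as 1 protein-coding transcript, S100a8-201, of 486 bases in 3 exons, and its retained-intron transcript S100a8-202 was not analysed here. S100a9 was listed as 2 protein-coding transcripts, S100a9-201 of 512 bases and S100a9-202 of 519 bases. They share exon 3 (chr3:90692632-90692934) and differ in where exon 1 begins (position 90695711 in S100a9-201 and 90695721 in S100a9-202) and in the first base of exon 2 (90695297 in S100a9-201 and 90695294 in S100a9-202), both in the 5′ untranslated region. Reads outside these few bases fit both S100a9 transcripts, so the split between them is less certain than their sum.

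The promoter sequences are shown because the 2 genes were expressed at a like height from 2 separate start sites. They are from RefSeq (GRCm38.p6), run 5′ to 3′ on the strand of each gene and stop before the first annotated base of the gene, which leaves 157 bases for S100a8 at chr3:90668821-90668977 (plus strand) and 250 bases for S100a9 at chr3:90695722-90695971 (minus strand). Capitals mark matches to the motifs searched.
S100a8 promoter: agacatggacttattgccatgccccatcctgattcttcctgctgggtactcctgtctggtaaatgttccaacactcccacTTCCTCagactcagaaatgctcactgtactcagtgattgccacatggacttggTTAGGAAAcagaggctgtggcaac
S100a9 promoter: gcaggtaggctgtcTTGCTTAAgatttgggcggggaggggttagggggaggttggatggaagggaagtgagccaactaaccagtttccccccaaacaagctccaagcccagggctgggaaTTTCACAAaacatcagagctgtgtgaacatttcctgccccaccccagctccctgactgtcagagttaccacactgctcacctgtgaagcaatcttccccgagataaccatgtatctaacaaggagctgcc
Motifs were searched on both strands in windows from 250 bases before to 50 bases after the RefSeq start, in 32851 windows of all genes. The C/EBP motif TTNNGNAA, a family that drives myeloid genes, was found once in S100a8, at 117 to 110 bases before the start, and at 2 places in S100a9, at 236 to 229 and at 130 to 123 bases before the start, and 40.7% of all windows held it. The PU.1 motif GAGGAA, read on the opposite strand as TTCCTC, occurred at 2 places in S100a8, at 170 to 165 and at 36 to 31 bases before the start, and 28.3% of windows held it. These letters were not in the S100a9 window. The TATA box letters TATAAA lay at 30 to 25 bases before the RefSeq start of S100a8, directly after the second PU.1 match. In S100a9 the letters were at bases 1 to 6 from the RefSeq start. They lie within S100a9-202 but before the start of S100a9-201, the main transcript. Of all windows, 13.6% held them. The S100a8 matches close to the RefSeq start fall beyond the bases printed, because GENCODE starts S100a8 93 bases further upstream. By the GENCODE annotation they lie within exon 1 of S100a8-201, so what counts as before the start depends on the annotation. The AP-1 motif TGANTCA (7.81% of windows), the STAT motif TTCNNNGAA (8.30%) and the estrogen response element (GGTCA and its inverted repeat, 3 bases apart, 0.0700%) had no match in either window.

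S100a8 was higher in OVX-Omacs than in sham Omacs in every library. It had 58702, 56355 and 74242 scaled TPM in OVX replicates 1 to 3, against 35988, 39297 and 29896 in sham replicates 1 to 3. The lowest OVX library stood well above the highest sham library. The means were 63100 ± 9721 in OVX-Omacs and 35060 ± 4769 in sham Omacs (SD, n = 3 each), a fold of 1.80, or 1.64 without OVX replicate 3. On the log2 scale the difference was 0.85 ± 0.19 (SE). In bulk RNA, more cells of a type that makes S100a8 and more of its RNA per cell cannot be told apart, and the same holds for every gene below.

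S100a9 was also higher in OVX-Omacs, and here OVX replicate 3 was the lowest of its group. S100a9 had 75585, 70278 and 54282 scaled TPM in OVX-Omacs, against 40879, 46293 and 36112 in sham Omacs. The means were 66715 ± 11090 in OVX-Omacs and 41095 ± 5094 in sham Omacs (SD, n = 3 each), a fold of 1.62, or 1.77 without OVX replicate 3. The difference was 0.69 ± 0.20 on the log2 scale (SE). The groups did not overlap for either gene on this scale, as was so, in the direction of higher in OVX, for 7.42% of the 8184 genes tested, those whose mean reached 1 scaled TPM. Because the genes were chosen for this contrast, nothing is read from that share.

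**Figure D1:**
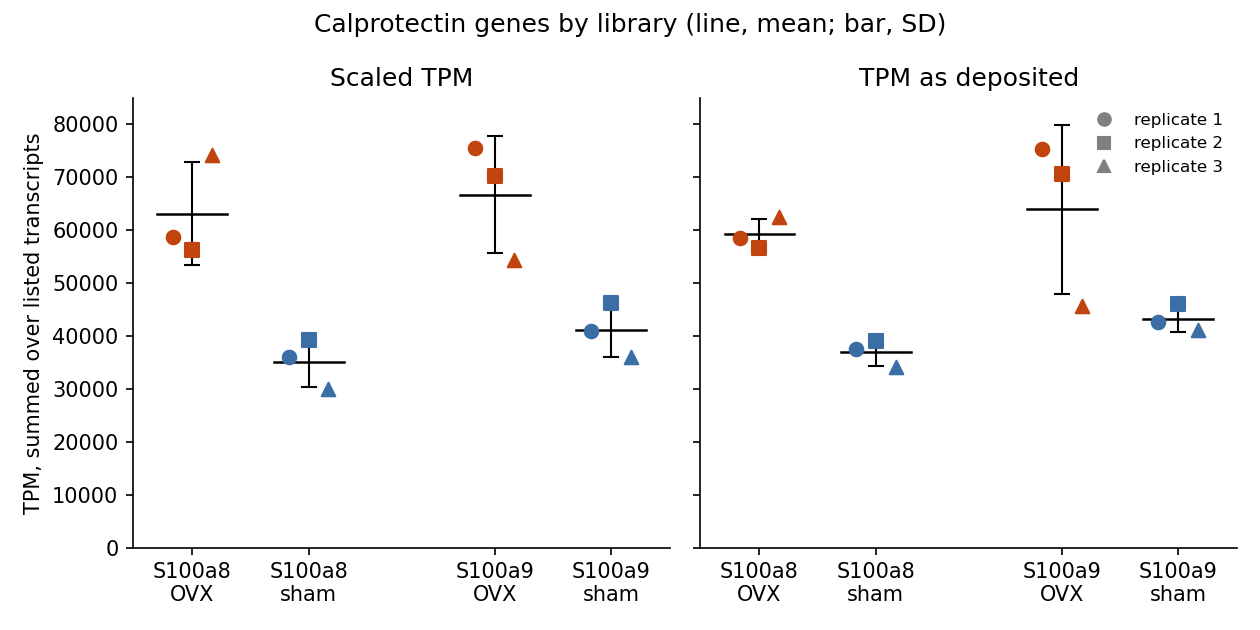
S100a8 and S100a9 by library in OVX-Omacs and sham Omacs, as scaled TPM (left) and as TPM as deposited (right), each summed over the listed transcripts; horizontal lines are means, vertical bars are SD over 3 libraries, and the marker shape gives the replicate number. On scaled TPM all OVX libraries lie above all sham libraries for both genes, and on TPM as deposited OVX replicate 3 (45670) falls below sham replicate 2 (46019) for S100a9.

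The scale mattered for S100a9. On TPM as deposited, S100a8 had 58591, 56688 and 62465 in OVX-Omacs, against 37574, 39064 and 34099 in sham Omacs, and the groups stayed apart. S100a9 had 75442, 70694 and 45670 TPM in OVX-Omacs, against 42680, 46019 and 41190 TPM in sham Omacs. Here OVX replicate 3 was inside the sham range, and the fold of the means was 1.48, or 1.69 without that library. On this scale the groups did not overlap, with OVX higher, for 3.57% of 8198 genes, and with OVX lower for 13.1%. On scaled TPM 607 genes were higher and 638 lower without overlap, against 293 and 1072 on TPM as deposited, and the median difference of all genes was -0.01 on scaled TPM and -0.15 on TPM as deposited.

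On scaled TPM, the sum of the genes varied less among OVX-Omacs than either gene did. Their sum was 134287, 126633 and 128524 scaled TPM in OVX-Omacs, against 76867, 85590 and 66008 in sham Omacs. The OVX libraries lay within a narrow band and none reached down to the sham libraries. The mean of the sum was 129815 ± 3987 in OVX-Omacs and 76155 ± 9810 in sham Omacs (SD, n = 3 each), with a fold of 1.70, or 1.71 without OVX replicate 3. On TPM as deposited this was not so, since the sum was 123184 ± 13450 in OVX-Omacs and S100a8 alone was 59248 ± 2944 (SD, n = 3). Of the full TPM scale, the pair held 13.4%, 12.7% and 10.8% in OVX-Omacs, against 8.03%, 8.51% and 7.53% in sham Omacs. That left 87.7% of the scale on average to all other transcripts in OVX-Omacs and 92.0% in sham Omacs, a shift of -0.07 on the log2 scale.

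By mean over all libraries the pair was above every other gene in the table. S100a9 ranked first and S100a8 second in 5 of 6 libraries, and the order was turned round in OVX replicate 3. The next genes by mean over all libraries were Fth1, the gene of ferritin heavy chain, at 29443 scaled TPM, the predicted gene Gm29216 at 25225 and mt-Rnr2, the large mitochondrial ribosomal RNA, at 24757. Their differences were -0.02 ± 0.23, -0.10 ± 0.16 and 0.05 ± 0.18 in that order (log2, SE). The margin was narrow in sham replicate 3, where Cxcl1, a chemokine gene named after its values were seen, reached 28894 scaled TPM against 29896 for S100a8.

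The ratio of S100a9 to S100a8 within a library does not depend on the scaling. It was 1.29, 1.25 and 0.731 in OVX-Omacs, against 1.14, 1.18 and 1.21 in sham Omacs. S100a9 was thus the more abundant subunit gene in 5 libraries and S100a8 in OVX replicate 3. The mean ratio was 1.09 ± 0.310 in OVX-Omacs and 1.17 ± 0.0362 in sham Omacs (SD, n = 3 each), a difference of -0.0853 that turned to 0.0934 without OVX replicate 3. Over all 6 libraries the levels of the genes had a Pearson r of 0.80, which holds the group difference, and an r of -0.17 once the group means were taken out.

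The shares of the S100a9 transcripts in the gene were close together in sham Omacs and varied more in OVX-Omacs. S100a9-201, the main transcript, had 64015, 60920 and 40173 TPM as deposited in OVX-Omacs, against 36465, 39174 and 35134 in sham Omacs. S100a9-202 had 11427, 9774 and 5498 TPM in OVX-Omacs, against 6215, 6845 and 6056 in sham Omacs. For both transcripts OVX replicates 1 and 2 were high. OVX replicate 3 had the lowest S100a9-202 of all libraries on TPM as deposited, whereas on scaled TPM it was within the sham range, with S100a9-202 at 11449, 9717 and 6534 in OVX-Omacs, against 5953, 6885 and 5309 in sham Omacs. S100a9-202 made up 15.1%, 13.8% and 12.0% of S100a9 in OVX-Omacs, against 14.6%, 14.9% and 14.7% in sham Omacs, so that the sham libraries lay within the range of the OVX libraries.

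**Figure D2:**
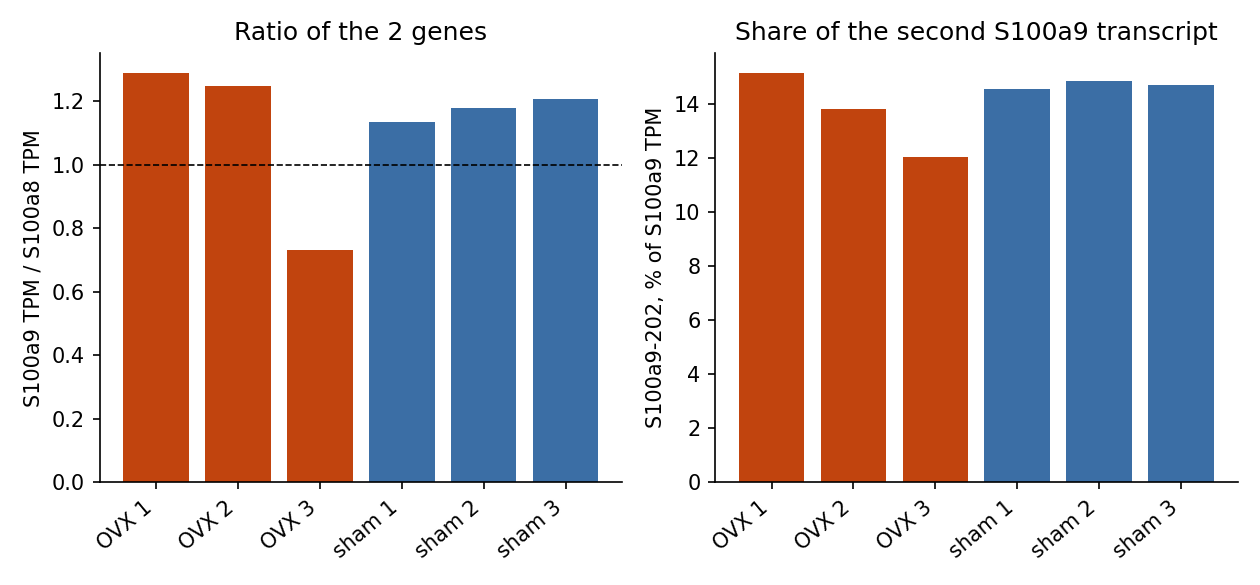
Left, S100a9 TPM divided by S100a8 TPM in each library, with a dashed line at equal levels; right, S100a9-202 as percent of S100a9 TPM in each library, with OVX libraries in orange and sham libraries in blue. OVX replicate 3 has the lowest value in both plots, 0.731 and 12.0%, and the 3 sham libraries lie close together.

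OVX replicate 3 also differed from its group by transcript length. The median of log2(OVX replicate 3 over the mean of OVX replicates 1 and 2), taken on scaled TPM + 1 over transcripts whose mean reached 10, was 0.85 for the 96 transcripts of up to 400 bases and 0.68 for the 439 transcripts of 401 to 600 bases, and -0.31 for the 1032 transcripts of 1201 to 2000 bases. The class of 401 to 600 bases, chosen after these values were seen, holds all 3 transcripts of the pair. There S100a8-201 was at 0.37, with 31.7% of the class below it, S100a9-201 at -0.38 with 11.4% below it, and S100a9-202 at -0.70 with 6.83% below it. In this library the S100a9 transcripts were thus low for their length, and S100a8 was within the middle 50% of its class. In sham replicate 3, set against the mean of sham replicates 1 and 2, the class median was -0.24 and the 3 transcripts lay between -0.33 and -0.27. The part of transcript length in the results was not tested.

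**Figure D3:**
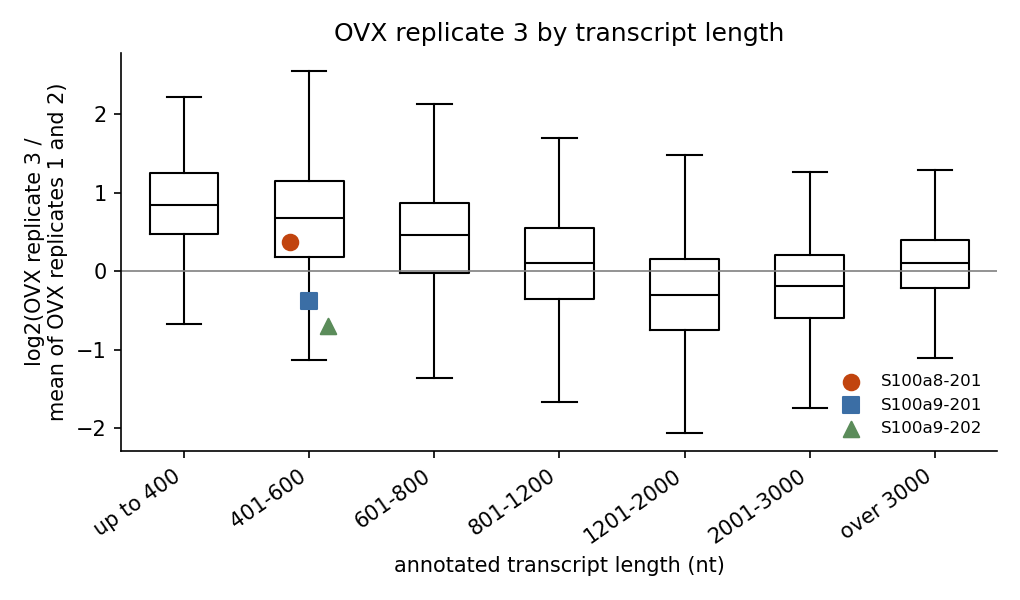
Log2 of OVX replicate 3 over the mean of OVX replicates 1 and 2 on scaled TPM + 1, for transcripts in classes of annotated length; boxes show the median and middle 50%, whiskers reach to the farthest value within 1.5 box lengths, and points are the transcripts of S100a8 and S100a9. Short transcripts were high in OVX replicate 3, and the S100a9 transcripts, at -0.38 and -0.70, lay under the box of their class (median 0.68).

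Across all genes the test of OVX against sham (limma, adjusted by Benjamini-Hochberg over 8184 genes) called 1 gene higher in OVX, or 0.0122% of the genes tested, and 0 genes lower, or 0%. Without adjustment, 283 genes were higher and 280 lower at a p under 0.05. The groups did not overlap for 607 genes with OVX higher, the 7.42% given above, and for 638 genes with OVX lower, or 7.8%. The called gene was the predicted gene Gm10132, named after its values were seen, at 16.5, 9.61 and 15.8 scaled TPM in OVX-Omacs, against 0, 0 and 0.447 in sham Omacs (adjusted p = 0.0128). None of the lists below held a called gene, so their members are given by values. Overlap of gene levels is judged below on scaled TPM. On TPM as deposited some genes that stood apart as higher did overlap, for example Tlr4, S100a6, Ngp and Lgals3.

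Among the receptors and binding partners of calprotectin, 9 of 11 genes were listed and 8 tested. Of these, 0 were called, 3 were higher in OVX-Omacs without overlap, 0 were lower without overlap, and the median difference was 0.23, against -0.01 over all genes tested. Over all genes tested, 7.42% were higher and 7.8% lower without overlap. These shares go beside the counts of this list and of each list below, and with so few genes per list nothing is read from the counts. Itgam encodes CD11b, the integrin chain used in the sort, and lay at 18.8, 18.5 and 28.2 scaled TPM in OVX-Omacs, against 11.3, 13.6 and 10.8 in sham Omacs. All OVX libraries were above all sham libraries, with a difference of 0.80 ± 0.20 (SE, limma adjusted p = 0.527). With the most abundant listed transcript in place of the sum, the difference of Itgam was 0.35. Itgb2, its integrin partner, was at 11.7, 10.5 and 2.53 in OVX-Omacs, against 6.51, 5.54 and 7.57 in sham Omacs, with OVX replicate 3 below every other library. The difference was 0.10 ± 0.47 (SE) and 0.69 without OVX replicate 3. The difference of Alcam, given below, became 0.40 without that library, and the median of the list 0.35.

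Tlr4, the receptor through which extracellular calprotectin signals, was near the floor of the table, at 2.49, 3.52 and 2.86 scaled TPM in OVX-Omacs, against 2.14, 2.12 and 2.17 in sham Omacs. The groups did not overlap, and the difference was 0.32 ± 0.17 (SE, limma adjusted p = 0.726). Cd14, which hands ligands to TLR4, was far more abundant and overlapped, at 917, 897 and 583 in OVX-Omacs, against 690, 672 and 771 in sham Omacs, with a difference of 0.14 ± 0.20 (SE), or 0.35 without OVX replicate 3. Ly96 and Ager, the genes of MD-2 and RAGE, were not analysed here. Of the other described partners, Alcam was at 0.67 ± 0.27 (adjusted p = 0.706) and did not overlap, Nptn (neuroplastin) was at 0.33 ± 0.21, Cd36 (a fatty acid receptor) at -0.18 ± 0.22 and Bsg (basigin) at -0.34 ± 0.22 (log2 difference, SE, limma), and the last 3 overlapped between the groups. Cd36 was at -0.37 and Bsg at -0.09 without OVX replicate 3. Mcam averaged 0.575 scaled TPM in OVX-Omacs and 0.764 in sham Omacs and was not tested.

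Downstream of TLR4, 16 of 19 genes were listed and 15 tested, with 0 called, 0 higher and 3 lower without overlap and a median difference of -0.26. Cxcl2, a chemokine that attracts neutrophils, had 3391, 3428 and 2299 scaled TPM in OVX-Omacs, against 3967, 3870 and 3999 in sham Omacs. Nfkbia, the inhibitor of NF-kB that NF-kB itself induces, had 1330, 1190 and 631 in OVX-Omacs, against 1441, 1412 and 1528 in sham Omacs. Both lay below the sham range in all OVX libraries, lowest in OVX replicate 3, with differences of -0.40 ± 0.19 and -0.55 ± 0.28 (SE, limma adjusted p = 0.711 and 0.715). Without OVX replicate 3 the differences were -0.21 for Cxcl2 and -0.22 for Nfkbia, and the median of the list was -0.08. The third gene that was lower without overlap, named after its values were seen, was Irak4, a kinase next to the receptor, with a mean of 0.711 scaled TPM in OVX-Omacs and 1.31 in sham Omacs. Il1b, the gene of interleukin-1 beta, was at 0.32 ± 0.19, and Ptgs2, the gene of the inducible cyclooxygenase, at 0.04 ± 0.14 (log2, SE), and both overlapped between groups. They were at 0.50 and -0.05 without OVX replicate 3.

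The neighbours in the S100 family were far below the pair. Of 15 other family genes 8 were listed and tested, with 0 called, 2 higher and 1 lower without overlap and a median difference of 0.10. S100a6, which lies in the same cluster, was the most abundant of them, at 3661, 3519 and 3485 scaled TPM in OVX-Omacs, against 2878, 3411 and 2582 in sham Omacs, a difference of 0.27 ± 0.15 (SE). S100a11 had 1996, 1884 and 2211 in OVX-Omacs, against 1483, 1785 and 1378 in sham Omacs, a difference of 0.40 ± 0.15 (SE, limma adjusted p = 0.693). In both the groups stood apart by a small margin. S100a10, an annexin partner, was at -0.00 ± 0.13 and S100a4 at -0.21 ± 0.26 (log2, SE), or 0.07 without OVX replicate 3, and both overlapped. The median of the list was 0.06 without that library. The widest differences in the list, chosen after their values were seen, were 0.54 ± 0.23 for S100a1 and -0.74 ± 0.44 for S100a16 (log2, SE).

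Set against S100a6 within each library, S100a8 was on average at 17.8 ± 3.05 times its level in OVX-Omacs and 11.9 ± 0.551 times in sham Omacs (SD, n = 3 each). S100a9 was at 18.7 ± 2.75 times the level of S100a6 in OVX-Omacs and 13.9 ± 0.320 times in sham Omacs. These ratios, which no scaling touches, were higher in all OVX libraries than in any sham library for both genes. Set against S100a11, S100a8 was at 31.0 ± 2.27 times its level in OVX-Omacs and 22.7 ± 1.41 times in sham Omacs (SD, n = 3 each), again apart, whereas S100a9 was at 37.9, 37.3 and 24.5 times in OVX-Omacs, against 27.6, 25.9 and 26.2 in sham Omacs, with OVX replicate 3 the lowest.

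Among regulators known to act on the pair, 10 of 14 genes were listed and 9 tested, with 0 called, 1 higher and 1 lower without overlap and a median difference of -0.10. Cebpb, of the C/EBP family whose motif both promoters held, was at 265, 253 and 199 scaled TPM in OVX-Omacs, against 160, 190 and 247 in sham Omacs, and overlapped, with a difference of 0.28 ± 0.20 (SE). Junb and Fos, subunits of AP-1, were at -0.24 ± 0.25 and -0.11 ± 0.19, and Hif1a, the hypoxia-inducible transcription factor, at -0.10 ± 0.12 (log2, SE). None of these 3 stood apart between groups. The genes that did, named after their values were seen, were Nr3c1, the glucocorticoid receptor, at 0.22 ± 0.15 and Runx1, a transcription factor of blood cells, at -0.28 ± 0.14 (log2, SE). With OVX replicate 3 left out, Junb was at 0.04, Fos at 0.06 and the median of the list at 0.04. Spi1, the gene of PU.1, was not analysed here.

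**Figure D4:**
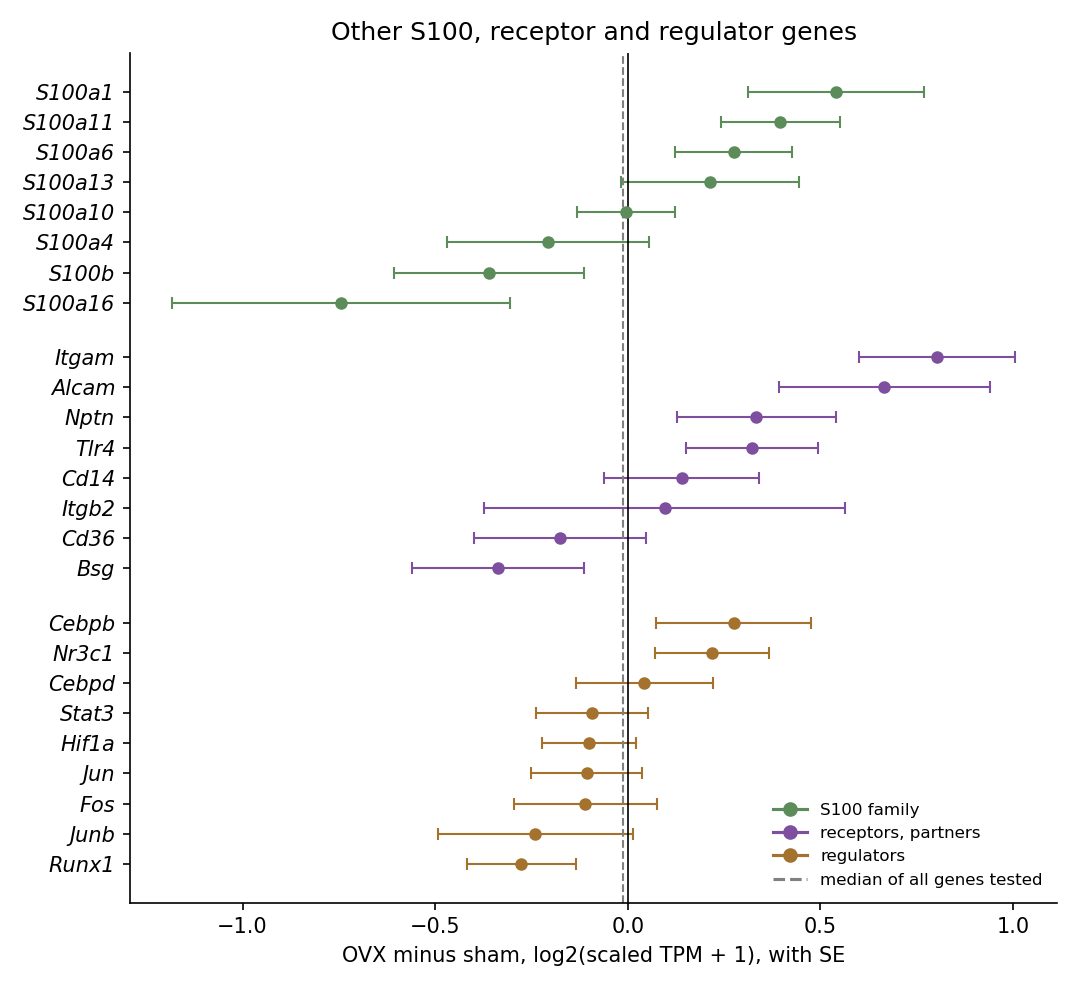
Difference of OVX minus sham in mean log2(scaled TPM + 1), with SE bars from limma, for the other S100 genes (green), receptors and binding partners (purple) and regulators (brown) that were tested; the dashed line is the median of all genes tested, -0.01. No gene shown was called, and the differences run between -0.74 for S100a16 and 0.80 for Itgam.

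Calprotectin works by withholding metals, and other genes of metal handling were listed for 10 of 12 and tested for 9, with 0 called, 1 higher and 2 lower without overlap and a median difference of 0.05. The metallothioneins Mt1 and Mt2, which bind zinc inside the cell, were the ones that were lower. Mt1 had 922, 856 and 795 scaled TPM in OVX-Omacs, against 1577, 1723 and 1410 in sham Omacs, and Mt2 had 1033, 1215 and 1003 in OVX-Omacs, against 1767, 1975 and 1539 in sham Omacs. Both groups stood well apart, in the direction opposite to the pair, with differences of -0.87 ± 0.14 and -0.70 ± 0.16 (SE, limma adjusted p = 0.290 and 0.441). The gene that was higher, named after its values were seen, was Slc40a1, the iron exporter ferroportin, with a mean of 6.92 scaled TPM in OVX-Omacs and 4.95 in sham Omacs and a difference of 0.41 ± 0.18 (log2, SE). Lcn2, which captures bacterial iron carriers, and Ltf, which binds iron, overlapped between the groups through OVX replicate 3 alone. Lcn2 had 1882, 1742 and 762 scaled TPM in OVX-Omacs, against 1139, 1196 and 1173 in sham Omacs, and Ltf had 130, 128 and 58.6 in OVX-Omacs, against 82.4, 78.2 and 87.8 in sham Omacs. OVX replicates 1 and 2 were above, and OVX replicate 3 below, all sham libraries. The differences were 0.22 ± 0.33 for Lcn2 and 0.26 ± 0.30 for Ltf (log2, SE), and without OVX replicate 3 they were 0.63 and 0.64 (limma adjusted p = 0.0511 and 0.0909). The median of the list was then -0.03.

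The neutrophil markers were looked at because neutrophils carry most calprotectin. Of 25 markers 11 were listed and 9 tested, with 0 called, 3 higher and 0 lower without overlap and a median difference of 0.26. Their summed level was 7468, 7092 and 3779 scaled TPM in OVX-Omacs, against 3831, 3867 and 3793 in sham Omacs. OVX replicates 1 and 2 were high, and OVX replicate 3 was just under the sham range. Most of the sum was Ngp, a granule protein gene, with 5249, 5026 and 2596 in OVX-Omacs, against 2442, 2417 and 2371 in sham Omacs, and a difference of 0.76 ± 0.27 (SE, limma adjusted p = 0.693). Without OVX replicate 3, Ngp passed the test at 1.09 ± 0.07 (SE, limma adjusted p = 0.00286), as 0.0847% of 8263 genes did with OVX higher and 0.0363% with OVX lower, and the median of the list was 0.49. For Ngp that fit kept only OVX replicates 1 and 2 and left out the OVX library closest to the sham values. Stfa3, a stefin of neutrophils, had 141, 131 and 299 in OVX-Omacs, against 120, 130 and 109 in sham Omacs. Unlike Ngp, it was highest in OVX replicate 3, and its difference was 0.56 ± 0.31 (SE), or 0.19 without that library. The third marker that stood apart, named after its values were seen, was the collagenase gene Mmp8, at 37.7 ± 6.75 in OVX-Omacs and 25.6 ± 1.24 in sham Omacs (SD, n = 3 each). Among the other neutrophil markers, Ly6g, Cxcr2, Csf3r, Camp, Cd177 and Retnlg were not analysed here, and Stfa1 was listed at 0 in every library. Mpo, of early granules, averaged 0.850 scaled TPM in OVX-Omacs and 0.900 in sham Omacs.

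Set against Ngp, calprotectin was not higher in all OVX libraries. The ratio of S100a8 to Ngp was 11.2, 11.2 and 28.6 in OVX-Omacs, against 14.7, 16.3 and 12.6 in sham Omacs, and that of S100a9 to Ngp was 14.4 in OVX replicate 1, just below that in OVX replicate 2, and 20.9 in OVX replicate 3, against 15.2 to 19.2 in sham Omacs. For both ratios, OVX replicates 1 and 2 were below the sham range, and OVX replicate 3 was above it. Set against Lcn2, S100a8 was at 31.2, 32.3 and 97.4 in OVX-Omacs, against 31.6, 32.9 and 25.5 in sham Omacs, so that OVX replicates 1 and 2 fell within the sham range. S100a9 was at 40.2, 40.3 and 71.2 times the level of Lcn2 in OVX-Omacs, against 35.9, 38.7 and 30.8 in sham Omacs, and here all OVX libraries were above all sham libraries. Against Stfa3, OVX replicates 1 and 2 were above the sham range and OVX replicate 3 below it. S100a8 was at 417, 430 and 249 times Stfa3 in OVX-Omacs, against 301, 302 and 274 in sham Omacs. S100a9 was at 537, 536 and 182 times, against 341, 356 and 331. Against Ltf, OVX replicates 1 and 2 were within the sham range and OVX replicate 3 above it for both genes. Against Mmp8 the groups overlapped for both genes. The part of neutrophil RNA in the level of the pair was not tested.

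Of the monocyte and macrophage markers, 11 of 22 were listed and 8 tested, with 0 called, 3 higher and 1 lower without overlap and a median difference of 0.22. Their summed level was 2064, 1962 and 1576 scaled TPM in OVX-Omacs, against 1542, 1585 and 1612 in sham Omacs, and the groups overlapped. Without OVX replicate 3 the median was 0.34. Lgals3, the gene of galectin-3, was at 0.30 ± 0.13, Lyz2, the lysozyme gene of myeloid cells, at 0.24 ± 0.16, and Fcgr3, an antibody receptor gene named after its values were seen, at 0.65 ± 0.17 (log2, SE, limma adjusted p = 0.706, 0.769 and 0.549). Lyz2 was at 0.38 without OVX replicate 3. Lgals3, Fcgr3 and Itgam were the genes that stood apart as higher. Vcam1, an adhesion molecule also named after its values were seen, stood apart as lower, at 6.28 ± 1.04 scaled TPM in OVX-Omacs and 10.1 ± 0.448 in sham Omacs (SD, n = 3 each). Relative to Lyz2 in the same library, S100a9 was at 203, 205 and 207 in OVX-Omacs, against 144, 173 and 134 in sham Omacs, and S100a8 was at 158, 164 and 283 in OVX-Omacs, against 127, 147 and 111 in sham Omacs. The groups did not overlap in either ratio. Relative to Cd68, S100a9 was at 1836, 1632 and 1493 in OVX-Omacs, against 1262, 1221 and 1079 in sham Omacs, again without overlap. Relative to Itgam the pair did not stand apart, with S100a8 at 3123, 3041 and 2630 in OVX-Omacs, against 3176, 2881 and 2772 in sham Omacs.

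**Figure D5:**
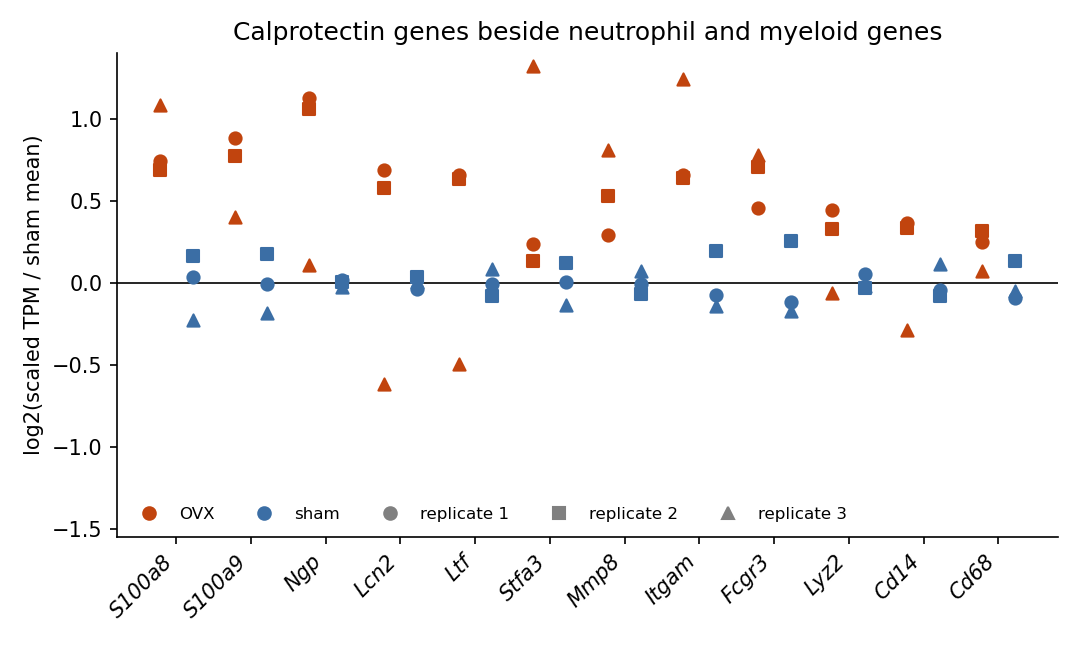
Log2 of scaled TPM over the sham mean for S100a8, S100a9 and 10 neutrophil and myeloid genes, with OVX libraries in orange, sham libraries in blue and the marker shape for the replicate number. OVX replicates 1 and 2 lie above the sham libraries for S100a8, S100a9, Ngp, Lcn2 and Itgam, and OVX replicate 3 lies high for S100a8, Stfa3 and Itgam but low for Lcn2 and Ltf.

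Genes of other cells were also present. All 8 stromal markers were listed, with 0 called, 0 higher and 3 lower without overlap, a median difference of -0.21 and a summed level of 18941, 17973 and 11178 scaled TPM in OVX-Omacs, against 17772, 18419 and 18133 in sham Omacs. Most of it was Dcn, the decorin gene of connective tissue, at 12050 ± 2220 in OVX-Omacs and 14261 ± 418 in sham Omacs (SD, n = 3 each). The difference of Dcn was -0.26 ± 0.18 (log2, SE), or -0.10 without OVX replicate 3, and the median of the list was then -0.04. Dcn, Col3a1 and Cxcl12 were the markers that did not overlap, the last pair named after their values were seen. The 6 erythroid and 5 B cell markers were not analysed here.

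The genes that followed the pair most closely were ranked over the 3210 genes whose mean reached 10 scaled TPM, by Pearson r with the mean of S100a8 and S100a9 over 6 libraries. The highest were Col10a1 (collagen X of cartilage) at 0.990, Tut7 (an RNA uridylyl transferase) at 0.990, Htatip2 at 0.989, the long noncoding RNA AW112010 at 0.988 and Slc38a2 (an amino acid transporter) at 0.986. These values hold the group difference, and after the group means were taken out they lay between 0.85 and 0.91. AW112010, for example, had 273, 256 and 278 scaled TPM in OVX-Omacs, against 140, 148 and 126 in sham Omacs, with the OVX libraries close together and well above the sham libraries. Ranked within groups only, the first 5 were Tmem70, Mrps36, Pf4, Gm10288 and Wdr75, at 0.98 to 1.00, and these ran from -0.65 to 0.39 over all libraries. Pf4, the platelet factor gene, had 392, 377 and 379 in OVX-Omacs, against 467, 534 and 422 in sham Omacs, lower where the pair was higher. Within groups S100a8 and S100a9 did not follow each other (r = -0.17), so a gene that follows their mean need not follow either. On scaled TPM their sum also varied less in OVX-Omacs (SD 3987) than in sham Omacs (SD 9810). The r within groups therefore leans on the sham libraries. With 6 libraries from 1 experiment, these rankings are a description only.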

How the data were processed

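The 6 libraries, 3 of OVX-Omacs and 3 of sham Omacs, were analysed from 1 table of transcripts. According to the submitters' processing notes and the study's methods, the authors trimmed reads with fastp, aligned them to mm10 with HISAT2 2.0.5 and counted with featureCounts 1.5.0-p3. The deposited values are TPM per transcript, and the step from counts to TPM is not stated. The columns of the authors' own comparison, a mean level, a fold change with its error, a test statistic and p-values, were not used. TPM were summed over the listed transcripts of a gene. Factors were an unweighted trimmed mean of log ratios (30% trimmed at each end by ratio and 5% by level). Genes reaching a mean of 1 scaled TPM were tested with limma 3.58.1 in R 4.3.3, with trend, on log2(scaled TPM + 1), which understates changes of low genes, two-sided, with Benjamini-Hochberg adjustment at 0.05. On simulated data with 8024 genes, 30.9% of 2-fold and 83.7% of 4-fold changes were called, with 0 in the wrong direction and 6 unchanged genes called. The members and the gene lists were chosen with earlier results of these data known, so the lists are described by counts and medians. Named were the pair, every listed receptor, up to 4 genes per list by mean level, the 5 most abundant genes and the 5 genes most like the pair by each measure. TPM hold no read counts, so no counting interval is given. Alternatives were other scalings, filters, pseudocounts, the most abundant transcript in place of the sum, a replicate block and each library left out in turn.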

Additional observations from a re-analysis of the deposited data

How the results depend on the processing

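S100a8 and S100a9 kept a positive difference under every alternative run, but for several of these that outcome was fixed beforehand. The filters and the replicate block cannot change the difference of a gene. As the groups did not overlap on scaled TPM, leaving 1 library out could hardly turn the sign. It was lowest on TPM as deposited, at 0.68 for S100a8 and 0.53 for S100a9 on the log2 scale, and with 1 library left out it lay between 0.72 and 0.93 for S100a8 and between 0.60 and 0.83 for S100a9. The difference in the S100a9 to S100a8 ratio ranged between -0.185 and 0.0934 with 1 library left out, and turned sign, to 0.0934, without OVX replicate 3. None of the 33 named list genes was called to begin with, so their staying uncalled says nothing about stability, and Ngp alone passed the test in an alternative, without OVX replicate 3. Of the 33 genes, 12 turned sign in at least 1 alternative, none of them a gene called or apart between the groups. The count of genes called higher, 1, became 0 with a pseudocount of 0.1, 0 with the replicate block and 2 with the most abundant listed transcript, and ranged between 0 and 7 with 1 library left out. The count called lower, 0, ranged between 0 and 3. Without OVX replicate 3 the counts were 7 and 3, and without sham replicate 2 they were 0 and 1. The causes were not tested. With the replicate block the difference was again 0.85 for S100a8 and 0.69 for S100a9. It could not be otherwise, because each replicate number occurs in both groups alike. No label says that the same replicate number pairs the libraries. The deviations of same-numbered libraries from their group means had correlations of -0.06, -0.13 and -0.25. Those of libraries with different numbers ran from -0.14 to 0.20. These values cannot decide on pairing, because the deviations within a group sum to 0 and so depend on each other.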
